A study of Mus musculus with 3 samples.

Results

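The 41 genes described here are genes of S phase and DNA replication, taken by symbol from a fixed list. All 41 were found among the 32285 genes listed for each library. They were followed in E14 mouse embryonic stem cells, a line of 129/Ola background, grown on gelatin with serum and leukemia inhibitory factor. The cells received 10 uM tubercidin, an adenosine analogue, for 3 h or for 6 h, or an equal volume of the solvent DMSO for 6 h as the control. Each of the 3 conditions was 1 droplet-based library (10x Genomics 3′ v3 chemistry), so the 3 h treatment had no control of its own time, and both treated libraries were set against the same control library.

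DNA replication starts where the MCM2 to MCM7 ring, the replicative helicase, is loaded onto DNA in G1 by factors that include CDC6, and is switched on by CDC45 and the GINS complex. At the fork, primase and the DNA polymerases copy the strands, PCNA clamps the polymerases to DNA, and FEN1 trims the ends of Okazaki fragments, while ribonucleotide reductase and thymidylate synthase supply the precursors. Many of these genes are transcribed around the G1/S transition through E2F factors. Embryonic stem cells have a short G1, and a large share of them is in S phase at any moment.

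The unit was the unique molecular identifier (UMI), which counts 1 captured transcript, and levels are CPM, the UMIs of a gene scaled by the UMIs of all called cells of its library to a total of 1000000. The control library held 2031 called cells, the 3 h library 2365 and the 6 h library 2926. Median depth differed strongly, at 48452 UMIs per control cell, 11877 at 3 h and 8004.5 at 6 h, and each pair of libraries shared 1 cell barcode. All 15 embryonic stem cell markers examined had a mean of at least 10 CPM, with summed levels of 5296, 6151 and 4701 CPM in control, 3 h and 6 h. Single markers differed more, with log2 ratios against control from -1.86 (Fgf4) to 0.71 (Tdgf1) at 3 h. At 6 h they ran from -1.33 (Sox2) to 0.92 (Esrrb). Summed markers of primitive endoderm, trophoblast and fibroblasts stayed at or below 16.2 CPM in every library. With 1 library per condition there is no replicate spread and no test: the 95% intervals below are exact intervals for counting error alone, and the condition cannot be told apart from the library. A lower count per cell can also not be told apart from a lower capture of RNA per cell.

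Promoters were examined for E2F words, since E2F is the factor most tied to this gene class. RefSeq promoters (GRCm38.p6, 250 bases before to 50 bases after the start) were matched for 31 of the 41 genes, as 34 promoters. The words TTTCCCGC, TTTCGCGC, TTTGCCGC and TTTGGCGC were searched on both strands, and words may overlap. At least 1 word stood in 13 of the 34 promoters (38.2%), against 2.26% of all 32851 promoters. Of the 7884 genes whose levels averaged at least 10 CPM, 6302 had matched promoters, and 4.56% of these 8025 promoters held a word. The 13 members with a word were Mcm3, Mcm5, Mcm6, Mcm7, Cdc6, Pola1, Pold3, Clspn, Casp8ap2, Hells, Cdca7, Ubr7 and Dtl. The CCAAT word, a common promoter element, stood in 67.6% of the members' promoters and in 37.4% of all promoters. The 4 promoters below belong to the 2 MCM genes whose CPM was higher at both times and to 2 genes with strongly lower CPM, and all 4 hold an E2F word, shown in capitals and in the orientation of the gene. They lie at chr8:75109259-75109558 (Mcm5, plus strand), chr5:138171834-138172133 (Mcm7, minus strand), chr4:32615220-32615519 (Casp8ap2, plus strand) and chr11:98907901-98908200 (Cdc6, plus strand).
Mcm5: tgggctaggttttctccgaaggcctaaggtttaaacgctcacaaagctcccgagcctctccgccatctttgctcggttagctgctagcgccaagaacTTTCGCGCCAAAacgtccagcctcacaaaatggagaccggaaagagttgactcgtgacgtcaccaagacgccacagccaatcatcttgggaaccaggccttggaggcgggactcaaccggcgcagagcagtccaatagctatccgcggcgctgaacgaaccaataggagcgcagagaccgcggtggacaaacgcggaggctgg
Mcm7: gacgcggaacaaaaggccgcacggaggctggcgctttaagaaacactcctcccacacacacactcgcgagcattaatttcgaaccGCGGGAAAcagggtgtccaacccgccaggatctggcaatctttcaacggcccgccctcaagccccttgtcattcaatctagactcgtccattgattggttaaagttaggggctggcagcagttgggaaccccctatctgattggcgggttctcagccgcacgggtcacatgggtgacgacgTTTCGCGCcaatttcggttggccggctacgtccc
Casp8ap2: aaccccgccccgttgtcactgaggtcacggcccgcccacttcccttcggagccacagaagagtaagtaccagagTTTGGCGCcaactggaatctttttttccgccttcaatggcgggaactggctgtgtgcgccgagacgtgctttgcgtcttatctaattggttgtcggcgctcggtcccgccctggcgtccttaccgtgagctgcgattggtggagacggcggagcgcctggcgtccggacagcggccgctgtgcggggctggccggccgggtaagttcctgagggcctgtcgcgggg
Cdc6: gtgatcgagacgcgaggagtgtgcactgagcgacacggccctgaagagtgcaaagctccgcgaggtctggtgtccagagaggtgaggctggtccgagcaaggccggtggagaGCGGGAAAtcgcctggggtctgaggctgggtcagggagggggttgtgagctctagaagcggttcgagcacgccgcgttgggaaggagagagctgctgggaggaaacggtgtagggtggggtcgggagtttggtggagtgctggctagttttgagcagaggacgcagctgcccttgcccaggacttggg
In Mcm5 the words TTTCGCGC and GCGCCAAA overlap, and the first is centred at position -149 from the start. This Mcm7 promoter holds a GCGGGAAA word centred at -161 and a TTTCGCGC word, while the second RefSeq promoter of Mcm7, at chr5:138171217-138171516, holds none. The Casp8ap2 word TTTGGCGC is centred at -172 and the Cdc6 word GCGGGAAA at -134. These are matches of letters and no measure of binding.

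Across the 41 genes, transcripts per cell were lower in both treated libraries, while the share of all transcripts was divided between lower and higher genes. A control cell held 325 UMIs of the 41 genes on average, a cell at 3 h 71.2 and a cell at 6 h 51.9, which is 4.56-fold and 6.26-fold fewer. Every one of the 41 was lower per cell at both times, from 3.18-fold (Rpa2) to 9.84-fold (Ccne2) at 3 h and from 3.52-fold (Mcm7) to 13.8-fold (Casp8ap2) at 6 h. This was the state of nearly every gene: 99.8% of all 7884 genes that averaged at least 10 CPM were lower per cell at 3 h and 99.8% at 6 h, and all UMIs per cell were 4.09-fold and 6.12-fold fewer. In summed CPM the 41 genes were at 6288, 5633 and 6153 in control, 3 h and 6 h. The histone chaperone gene Nasp alone made up a large part of this sum, and the other 40 summed to 5211, 4288 and 4737 CPM.

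Fold differences of single genes are given as log2 ratios of CPM + 1, so the low genes are slightly understated. The intervals in parentheses are for the ratio of CPM itself. The median gene of the class stood at -0.42 at 3 h, against -0.27 for the 7884 genes that averaged at least 10 CPM over the libraries. At 6 h it stood at -0.31, against -0.12. All 41 members reached that mean. The ratio was below that of the median gene for 28 of the 41 at 3 h and for 27 at 6 h.

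At 3 h, 3 members (7.32%) were at least 2-fold lower, against 5.54% of all genes, and at 6 h 1 member (2.44%) was, against 4.41%. These were Casp8ap2, Ccne2 and Fen1 at 3 h and Casp8ap2 at 6 h. No member was at least 2-fold higher at 3 h, where 0.888% of all genes were, or at 6 h, where 2.33% were. At the 1.5-fold mark 14 members (34.1%) were lower at 3 h, against 24.5% of all genes, and 14 were lower at 6 h, against 16.9%. The members held 0 genes at least 1.5-fold higher at 3 h (3.61% of all genes) and 1 at 6 h, Mcm7 (7.06% of all genes). The 2-fold share was thus near the background at 3 h. At 6 h it rests on 1 member and is not read as apart from the background. The 1.5-fold share of lower genes was above the background at both times.

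The counting interval lay below 0 for 32 members and above 0 for 9 at 3 h, against 65.5% and 21.5% of all genes. At 6 h it lay below 0 for 29 members and above 0 for 9, and it included 0 for 3, against 51.9% and 31.7% of all genes. The share of all genes with intervals on the same side of 0 at both times was not computed, and both ratios use the same control library. In 29 members the interval was below 0 at both times, and in 8 it was above 0 at both times: Mcm5, Mcm7, Rfc2, Rpa2, Ung, Nasp, Chaf1b and Dtl. Under 4 relative scalings (CPM, CPM without mitochondrial genes, median-of-ratios and TMM) these 8 kept their sign at both times, while Mcm2, Mcm6, Pola1 and Hells changed sign between scalings at 3 h and Pola1, Tyms and Cdca7 at 6 h. Median-of-ratios scaling moved the median of all genes by 0.23 at 3 h and 0.01 at 6 h, and TMM by 0.19 and -0.03.

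Depth moved with these differences. Among cells of 12000 to 25000 UMIs (70 in control, 1081 at 3 h, 385 at 6 h) the members' median was -0.45 at 3 h and -0.30 at 6 h. The median of all genes there was -0.51 and -0.28, so the members stood 0.06 above it at 3 h and differed by -0.01 at 6 h. In that window 17 members at 3 h and 22 at 6 h were below the median gene. The sign of the ratio was the same there as in all cells for 39 of the 41 members at 3 h and for 34 at 6 h. The remaining directions in CPM were thus not kept at like depth. The members' medians were little changed from -0.42 and -0.31 in all cells, while the median of all genes was lower than its -0.27 and -0.12. The window takes few control cells, all well under their median of 48452 UMIs, and 6 h cells above their median of 8004.5. Whether depth plays a part in the lower position of the class was not tested.

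**Figure D1:**
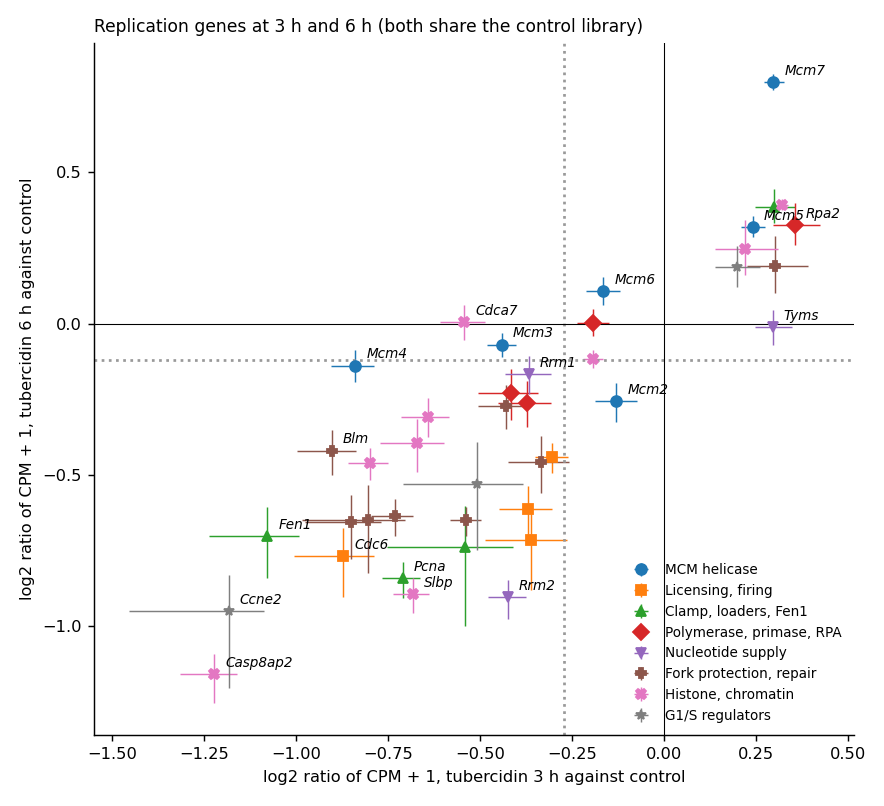
Log2 ratio of CPM + 1 at 3 h (horizontal axis) and at 6 h (vertical axis) against the control library for the 41 genes, 1 point per gene, marked by role; bars are 95% counting intervals and dotted lines are the medians of all 7884 genes, -0.27 and -0.12. Mcm7 stands alone at the top, Mcm5, Rfc2, Nasp and Rpa2 lie above 0 at both times, and Casp8ap2 and Ccne2 are lowest at both.

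The 6 MCM genes were split. Mcm7 (chr5:138164583-138172422, minus strand, GRCm38) was at 405, 499 and 705 CPM in control, 3 h and 6 h. Its log2 ratio was 0.30 (0.27 to 0.33) at 3 h and 0.80 (0.77 to 0.82) at 6 h, the highest of the 41 at 6 h. Mcm5 (chr8:75109569-75128439) was at 277, 328 and 346 CPM, with ratios of 0.24 (0.21 to 0.28) and 0.32 (0.29 to 0.36). Both were thus higher in CPM in each treated library, although the UMIs per cell of Mcm7 went from 20.9 to 6.30 and 5.95.

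The other subunits were lower at 3 h and spread out at 6 h. Mcm4 (chr16:15623897-15637400) was at 161, 89.4 and 146 CPM, with ratios of -0.84 (-0.91 to -0.79) at 3 h and -0.14 (-0.19 to -0.09) at 6 h. Mcm3 (chr1:20802968-20820312) was at 271, 199 and 258 CPM, and its ratios were -0.44 (-0.48 to -0.40) and -0.07 (-0.11 to -0.03). Mcm4 and Mcm3 were thus both lowest at 3 h and near the control level at 6 h. In the window of like depth Mcm4 was at -0.48 at 3 h and on the other side of 0 at 6 h, at 0.25.

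Mcm6 (chr1:128331590-128359664) was at 176, 157 and 190.3 CPM, with ratios of -0.16 (-0.21 to -0.12) and 0.11 (0.06 to 0.16). Mcm2 (chr6:88883474-88898780) was at 113, 103 and 94.5 CPM, with ratios of -0.13 (-0.19 to -0.07) and -0.26 (-0.32 to -0.20). Both Mcm2 and Mcm6 stood above the median gene at 3 h and changed sign there under the median-of-ratios scaling. The median of the 6 genes was -0.15 at 3 h in CPM and 0.09 with median-of-ratios factors, and 0.02 at 6 h in CPM.

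The subunits form a ring with 1 copy of each, and their transcripts shifted against one another. Of all UMIs of the 6 genes, the control library had 28.9% in Mcm7 (95% exact binomial interval 28.7 to 29.1). The 3 h library had 36.2% (35.8 to 36.7), and the 6 h library 40.5% (40.1 to 40.99). The share of Mcm4 was 11.4% in control, 6.49% at 3 h and 8.38% at 6 h. Mcm2 was at 8.06%, 7.51% and 5.43%, and Mcm3 was at 19.3%, 14.5% and 14.8%. These shares do not depend on the scaling of the libraries. The 6 genes summed to 1404, 1376 and 1741 CPM.

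**Figure D2:**
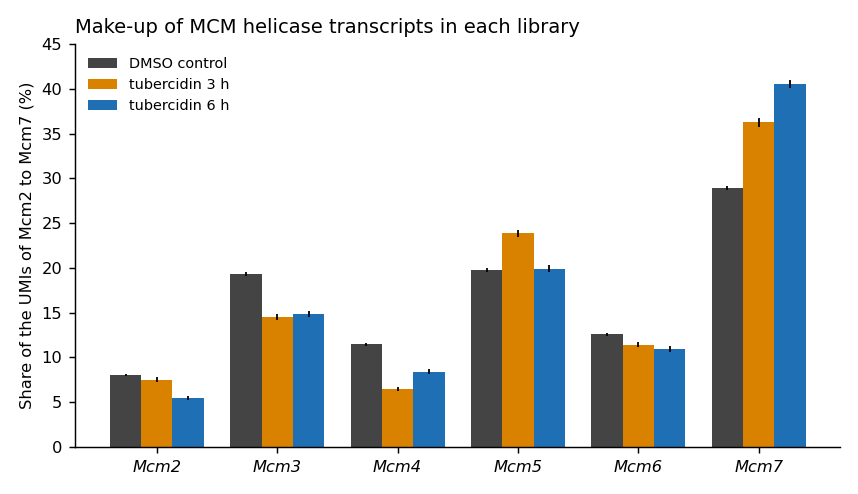
Share of each subunit in the UMIs of Mcm2 to Mcm7 (vertical axis, percent) in the control, 3 h and 6 h libraries; bars start at 0 and error bars are 95% exact binomial intervals for counting error. Mcm7 goes from 28.9% to 36.2% and 40.5%, while Mcm4 is at 11.4%, 6.49% and 8.38%.

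Mcm7 shares sequence with its neighbours, which bears on its count. GENCODE M21 places Ap4m1 (421 bases) and Cops6 (64 bases) across its ends on the opposite strand, and the miRNA genes Mir25, Mir93 and Mir106b inside it. The strand setting of the counting is not given in the sources used here, so reads of Mcm7 and of these antisense neighbours may not be fully separated.

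All 4 genes of origin licensing and firing were lower in CPM at both times. Cdc6, the loader of the helicase, was at 50.2, 27.0 and 29.0 CPM in control, 3 h and 6 h, with ratios of -0.87 (-1.005 to -0.79) and -0.77 (-0.90 to -0.68). Cdc45, the helicase activator, was at 34.9, 26.9 and 20.8 CPM, and Gins2, a GINS subunit, at 80.5, 62.0 and 52.3 CPM. The ratios of Cdc45 went from -0.36 at 3 h to -0.72 at 6 h and those of Gins2 from -0.37 to -0.61. Gmnn encodes geminin, the inhibitor of relicensing, and was at 203, 164 and 149 CPM. Cdc6 was thus low already at 3 h, and the other 3 were lowest at 6 h. The group's median was -0.37 at 3 h and -0.66 at 6 h. Gins2 overlaps the antisense gene Gse1 by 2758 bases and Cdc45 the antisense gene Ufd1 by 209 bases, so their reads may not be fully separated.

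Among the clamp genes, the clamp itself and the flap nuclease were lower and a clamp loader subunit was higher. Pcna (chr2:132249162-132253314, minus strand) was at 191, 116 and 106 CPM, with ratios of -0.71 (-0.77 to -0.66) at 3 h and -0.84 (-0.91 to -0.79) at 6 h. Per cell its UMIs went from 9.84 to 1.47 and 0.893, which is 6.70-fold and 11.02-fold fewer. Fen1 was at 44.8, 20.7 and 27.1 CPM, with ratios of -1.08 (-1.24 to -0.99) and -0.70 (-0.84 to -0.60). Dscc1, part of an alternative clamp loader, was at 16.7, 11.2 and 9.60 CPM. Rfc2, a subunit of the replication factor C loader, was at 102, 126 and 134 CPM, and its ratios were 0.30 (0.25 to 0.36) and 0.39 (0.33 to 0.45). Rfc2 overlaps the antisense gene Lat2 by 1784 bases, and Dscc1 overlaps the antisense gene Gm41325 by 5931 bases. Pcna has 2 processed pseudogenes in GENCODE M21, Pcna-ps1 and Pcna-ps2, which are not among the genes listed for the libraries. Fen1 overlaps the antisense genes Gm10143 and Tmem258, which are listed. Reads of all these genes may be shared.

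Of the 4 polymerase, primase and single-strand binding genes, 3 were lower in CPM at 3 h and Rpa2 was higher, with Pola1 above 0 at 3 h under median-of-ratios scaling. Pola1, the catalytic subunit of polymerase alpha, was at 204, 179 and 205 CPM, with ratios of -0.19 (-0.24 to -0.15) and 0.00 (-0.04 to 0.05). Prim1, the catalytic primase subunit, was at 81.2, 62.5 and 67.5 CPM. Pold3, an accessory subunit of polymerase delta, was at 66.4, 49.5 and 56.5 CPM. In CPM these 3 were lowest at 3 h, but under both median-of-ratios and TMM scaling all 3 were lower at 6 h than at 3 h. Rpa2, a subunit of the single-strand binding protein RPA, was at 72.3, 92.8 and 90.9 CPM, with ratios of 0.36 (0.30 to 0.42) and 0.33 (0.26 to 0.40), the highest of the 41 at 3 h.

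In CPM the 3 nucleotide supply genes took 3 courses. Tyms, thymidylate synthase, was at 119, 146 and 118 CPM, with ratios of 0.30 (0.25 to 0.35) at 3 h and -0.01 (-0.07 to 0.05) at 6 h. Rrm1, the large subunit of ribonucleotide reductase, was at 109.6, 84.8 and 97.5 CPM, with ratios of -0.37 (-0.43 to -0.31) and -0.17 (-0.23 to -0.11). Under median-of-ratios scaling Rrm1 was at -0.13 and -0.15, and under TMM at -0.18 and -0.20, so it was slightly lower at 6 h than at 3 h. Rrm2 (chr12:24708241-24714146), the small subunit, was at 167, 125 and 89.0 CPM, with ratios of -0.42 (-0.48 to -0.37) and -0.90 (-0.98 to -0.85). The 2 subunits of the reductase were thus alike at 3 h and apart at 6 h. Between 3 h and 6 h Rrm2 had the lowest ratio of all 41 genes, -0.48 (-0.56 to -0.41), and Tyms was at -0.31 (-0.38 to -0.24). Summed, the 3 genes were at 396, 355 and 304 CPM, while the MCM genes went from 1376 at 3 h to 1741 at 6 h. Tyms has a processed pseudogene, Tyms-ps, which is not among the genes listed for the libraries and with which reads may be shared.

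**Figure D3:**
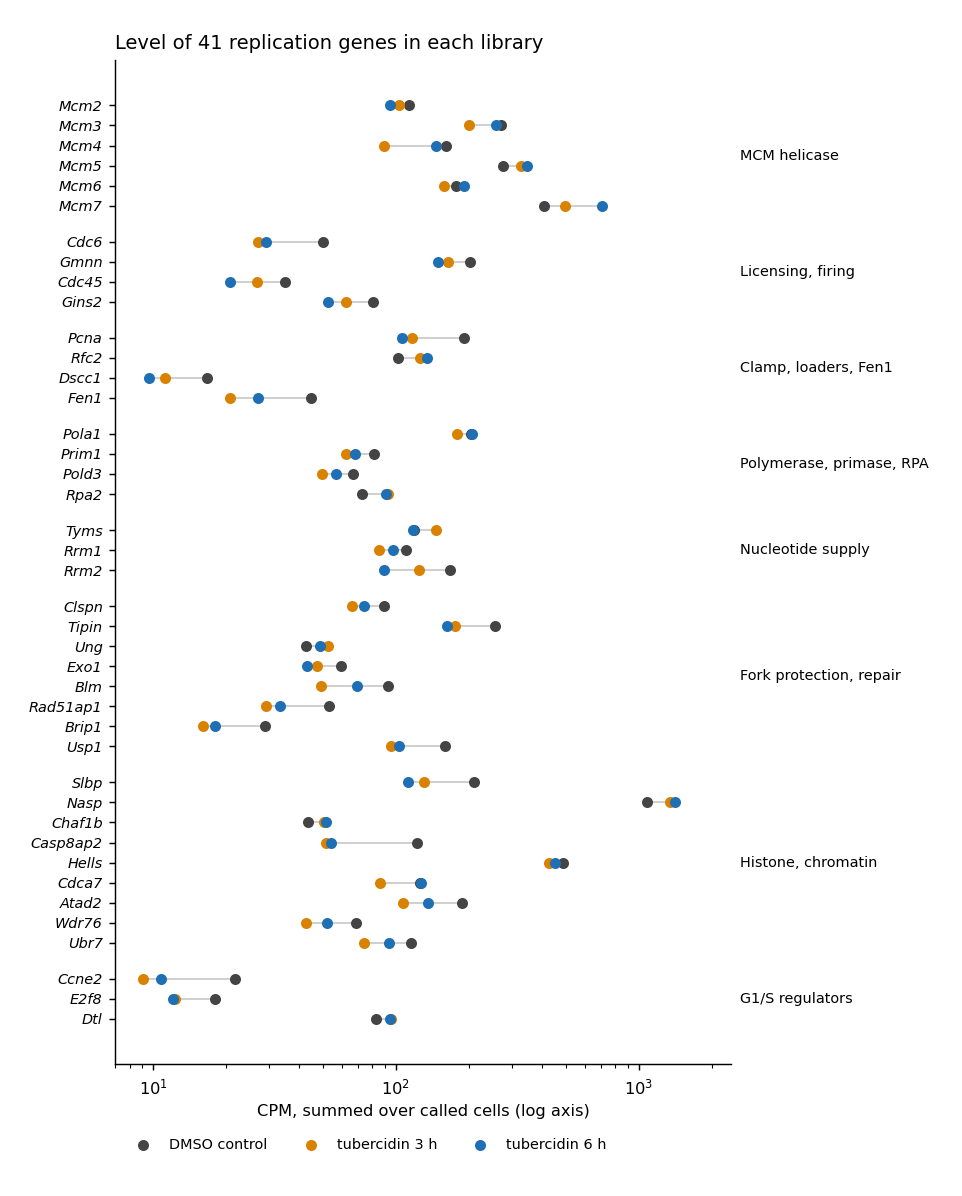
CPM summed over called cells (horizontal log axis) of each of the 41 genes in the control, 3 h and 6 h libraries, 1 row per gene grouped by role. Mcm7 lies to the right of its control in both treated libraries, Pcna, Cdc6 and Casp8ap2 lie to the left in both, and Rrm2 is at 167, 125 and 89.0 CPM.

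Of the 8 genes of fork protection and repair, 7 were lower at both times and 1 was higher. Blm, the Bloom helicase, was at 92.7, 49.1 and 69.0 CPM, with ratios of -0.90 (-0.997 to -0.84) and -0.42 (-0.50 to -0.35). Rad51ap1, a gene of recombination repair, was at 53.2, 29.1 and 33.4 CPM, and Brip1, a helicase that binds BRCA1, at 28.9, 16.1 and 18.1 CPM. Usp1, the deubiquitinase of PCNA and FANCD2, was at 159.8, 95.8 and 103 CPM. In CPM these 4 were lowest at 3 h, with ratios of -0.73 or below. Under median-of-ratios and TMM scaling Rad51ap1, Brip1 and Usp1 were lower at 6 h than at 3 h, and Blm kept its order. Tipin, part of the fork protection complex, was at 255, 175 and 162 CPM, the checkpoint mediator gene Clspn at 89.4, 66.1 and 73.9 CPM, and the exonuclease gene Exo1 at 59.7, 47.1 and 43.2 CPM. Ung, the uracil-DNA glycosylase, was at 42.5, 52.7 and 48.7 CPM, with ratios of 0.30 (0.23 to 0.39) and 0.19 (0.10 to 0.29).

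The 9 histone supply and chromatin genes held both lower and higher members. Casp8ap2 (chr4:32615451-32653265), which encodes a factor of histone gene expression, was at 122, 51.6 and 54.0 CPM. Its ratios were -1.22 (-1.32 to -1.16) at 3 h and -1.16 (-1.25 to -1.09) at 6 h, the lowest of the 41 at both times. Slbp, the histone stem-loop binding protein, was at 209.6, 130.2 and 112 CPM, with ratios of -0.68 (-0.74 to -0.64) and -0.89 (-0.96 to -0.84). Both genes that act on histone mRNA were thus lower. The 2 histone chaperone genes were higher: Nasp was at 1077, 1346 and 1416 CPM, with ratios of 0.32 (0.30 to 0.34) and 0.39 (0.38 to 0.41), and Chaf1b, a subunit of chromatin assembly factor 1, at 43.4, 50.7 and 51.7 CPM. Nasp has a processed pseudogene, Nasp-ps1, which is not among the genes listed for the libraries and with which reads may be shared. Chaf1b overlaps Gm49617, a listed gene on the same strand, by 1414 bases, so its reads may not be fully separated.

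The other chromatin genes were lowest at 3 h in CPM, and Hells was lower at 6 h than at 3 h under median-of-ratios and TMM scaling. Hells, a chromatin remodeller of DNA methylation, was at 489, 428 and 450.4 CPM, and its partner Cdca7 at 126, 86.1 and 126 CPM. Cdca7 was thus back at the control level at 6 h, with a ratio of 0.55 (0.48 to 0.63) between 3 h and 6 h. Atad2, a bromodomain ATPase, was at 187, 107 and 136 CPM, Wdr76 at 68.5, 42.7 and 51.9 CPM and Ubr7 at 116, 73.9 and 93.5 CPM. The median of the 9 genes was -0.64 at 3 h and -0.31 at 6 h.

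Of the 3 regulators of G1/S, the cyclin gene and the E2F gene were lower and Dtl was higher. Ccne2, cyclin E2, was at 21.8, 9.07 and 10.8 CPM, with ratios of -1.18 (-1.46 to -1.09) and -0.95 (-1.20 to -0.83). It overlaps the antisense gene Ints8, so its reads may not be fully separated. E2f8, a repressor among the E2F factors, was at 17.9, 12.3 and 12.1 CPM, and it overlaps the antisense gene Gm2788 by 3639 bases. Dtl, the adaptor that marks the licensing factor CDT1 for degradation, was at 82.9, 95.3 and 94.5 CPM, with ratios of 0.20 (0.14 to 0.26) and 0.19 (0.12 to 0.26).

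Between 3 h and 6 h the class differed little in CPM. The members' median was 0.09, against 0.14 for all genes, and no member was 2-fold apart, where 0.165% of all genes were lower and 1.64% higher. At the 1.5-fold mark 0 members were lower (1.67% of all genes) and 1 was higher, Mcm4, with a ratio of 0.70 (0.63 to 0.78), where 8.51% of all genes were. The counting interval lay below 0 for 11 members and above 0 for 22, against 19.7% and 51.2% of all genes. Mcm7 was at 0.50 (0.47 to 0.53), Blm at 0.48 (0.39 to 0.59) and Fen1 at 0.38 (0.23 to 0.55). At the other end, after Rrm2, stood Cdc45 at -0.35 (-0.53 to -0.21) and Tyms. The median of all genes between 3 h and 6 h moved by -0.22 under either median-of-ratios or TMM scaling, and the members' median was then -0.14 in both. The balance of signs turned with it: 15 members were below 0 in CPM and 30 under either of these scalings.

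The cells were also compared at equal depth, by drawing 4000 UMIs from each cell, which left out 0, 122 and 284 cells of the control, 3 h and 6 h libraries. The 41 genes then had a median of 25 UMIs per control cell, 22 per cell at 3 h and 24 per cell at 6 h, and 0 cells lacked a UMI of the class. Without thinning the mean had been 325, 71.2 and 51.9. At equal depth the MCM genes averaged 5.60, 5.55 and 6.94 UMIs, the clamp group 1.46, 1.11 and 1.12, and the nucleotide supply genes 1.64, 1.43 and 1.22. The variance over the mean across cells was 1.65 in control, 1.86 at 3 h and 1.64 at 6 h.

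**Figure D4:**
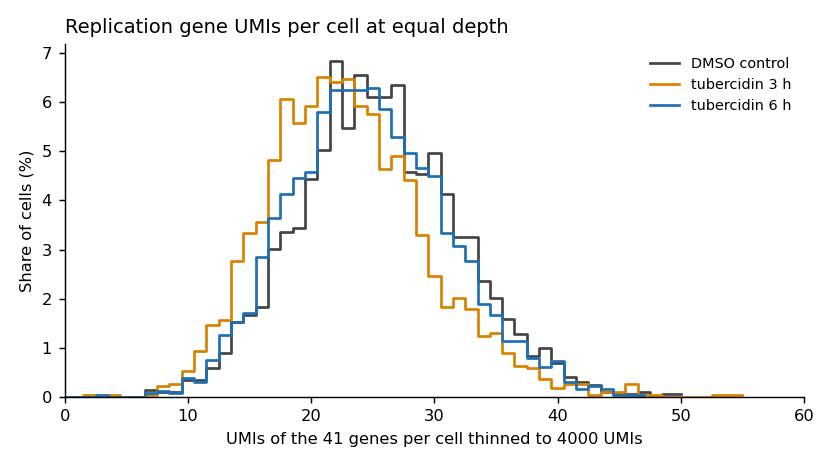
Share of cells (vertical axis, percent) by the number of UMIs of the 41 genes (horizontal axis) after each cell was thinned to 4000 UMIs, 1 line per library. The 3 distributions overlap widely, with medians of 25, 22 and 24 UMIs in control, 3 h and 6 h.

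Replication genes and G2/M genes mark different stretches of the cell cycle, so the members were also set against 40 G2/M genes within each library. Cells were ranked by their G2/M UMIs at 4000 UMIs per cell and cut into 3 ranges of equal size, called low, middle and high, which are ranges of a score and not cell types. In control cells the members summed to 6638 CPM (6610 to 6667) in the low range, 6410 in the middle range and 5910 (5886 to 5934) in the high range. The log2 ratio of the high to the low range was -0.17 (-0.18 to -0.16). At 3 h the sums were 5594, 5618 and 5577 CPM and the ratio was -0.0043 (-0.02 to 0.01), and at 6 h they were 6137, 6183 and 6137 CPM with a ratio of -0.00011 (-0.02 to 0.02). The G2/M genes themselves, which set the ranking, differed between the outer ranges by 0.74, 0.78 and 0.74. The 4000 ranked UMIs are among those counted and are a larger part of them in the shallower treated cells. These like values therefore do not show an equally strong split. Among cells of 12000 to 25000 UMIs they were 0.79, 0.72 and 0.50 in control, 3 h and 6 h.

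In control cells 38 of the 41 members were lower in the high range, with 22 at 3 h and 19 at 6 h. The share of all genes lower in that range was not computed, so these counts cannot be read as particular to the members. The lowest control ratios were those of Ung at -0.80, Ccne2 at -0.72, Dscc1 at -0.66, Chaf1b at -0.52, Cdc6 at -0.40 and Pcna at -0.36. In the treated cells Ccne2 was at 0.09 and -0.02 and Pcna at -0.12 and -0.04. Ung and Chaf1b remained lower in the high range, Ung at -0.28 and -0.38 and Chaf1b at -0.42 and -0.49. Usp1 was the member with the highest ratio in each library, at 0.14, 0.37 and 0.39. Over 20 further random draws the control ratio ran from -0.19 to -0.15, the 3 h ratio from -0.03 to 0.02 and the 6 h ratio from -0.02 to 0.01.

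Depth again differed with this pattern. The median control cell held 44350 UMIs in the low and 57312 in the high range, against 11819.5 and 12828 at 3 h and 7851 and 8878.5 at 6 h. Among cells of 12000 to 25000 UMIs the control ratio was -0.07 (-0.16 to 0.01) over 70 cells. The 3 h ratio there was -0.05 (-0.07 to -0.03) over 1081 cells and the 6 h ratio -0.0057 (-0.04 to 0.03) over 385 cells. The gap between control and treated cells was therefore not resolved at like depth, at 3 h or at 6 h. The part of the lower G2/M level in the treated libraries, 6259 CPM in control, 4489.8 at 3 h and 4748 at 6 h, was not tested.

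**Figure D5:**
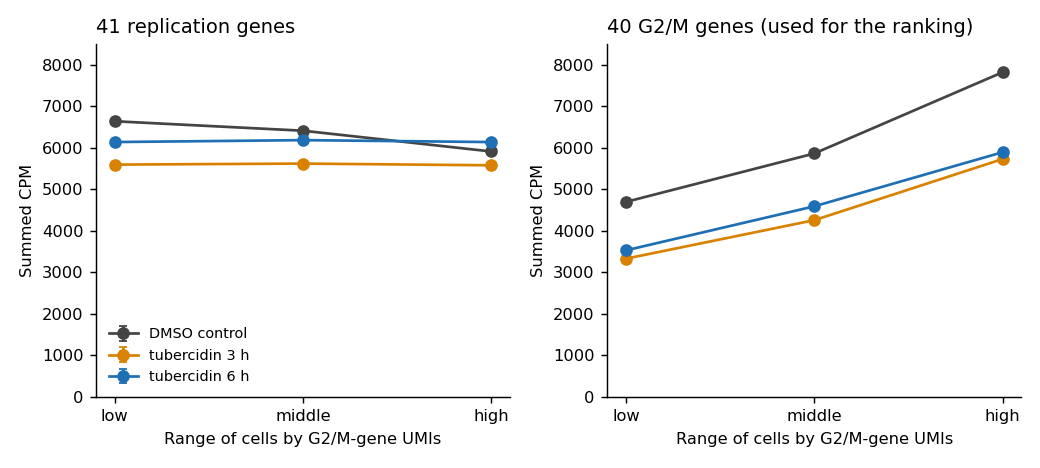
Summed CPM of the 41 replication genes (left) and of the 40 G2/M genes that set the ranking (right) in the low, middle and high range of cells of each library by G2/M UMIs; error bars, smaller than the points, are 95% counting intervals. The control line of the replication genes goes from 6638 to 5910 CPM, and the 2 treated lines are level.

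Base composition of the transcripts was set against the size of the difference. Across the 41 genes the GC content of the annotated mRNA and the log2 ratio correlated with Pearson r = 0.46 and Spearman rho = 0.43 at 3 h, and with r = 0.40 and rho = 0.36 at 6 h. Across the 7679 of 7884 genes with an annotated mRNA the Pearson r was 0.26 and 0.25, and the Spearman rho was 0.30 and 0.31. Single genes departed from it. Of the 3 members at least 2-fold lower at 3 h, Ccne2 had 36.3% GC, Casp8ap2 41.01% and Fen1 53.8%. Among those higher at both times, Mcm7 had 53.4% and Nasp 45.5%. The genes share their library and their depth, so these are descriptions across genes, which are not independent replicates. The length of the gene had an r of -0.04 at 3 h among the members and of -0.23 among all genes. Exon number, mRNA length and the length of the untranslated 3′ end were also examined. Among the members their Pearson r was 0.06, -0.10 and -0.06 at 3 h and 0.23, 0.05 and -0.06 at 6 h.

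Genes with and without an E2F word in the promoter differed little at 3 h. The median ratio at 3 h was -0.42 for the 13 genes with a word and -0.40 for the 18 without. At 6 h the medians were -0.07 and -0.41. The ratios ran from -1.22 to 0.30 with a word and from -1.08 to 0.36 without at 3 h. At 6 h they ran from -1.16 to 0.80 with a word and from -0.90 to 0.39 without. The 4 promoters printed above were picked as examples and do not show how the words are spread over the range. For the other 10 members no promoter was matched.

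Other genes of the replication machinery gave the frame for the 41. Of 108 further genes in 6 lists, 100 had a mean of at least 10 CPM, with medians of -0.31 at 3 h and -0.25 at 6 h. Their counting intervals were below 0 in 72 and above 0 in 19 at 3 h, and in 65 and 26 at 6 h, against 65.5% and 21.5% of all genes at 3 h and 51.9% and 31.7% at 6 h. Among origin genes, Donson, a replisome factor, was at 16.2, 8.06 and 6.81 CPM. Orc5, an origin recognition subunit, stood at the other end with a ratio of 0.40 at 6 h. Among polymerase and lagging-strand genes, Lig1, the ligase that joins Okazaki fragments, was at 303, 364 and 509 CPM, and Pclaf, a PCNA-binding factor, at 125, 83.5 and 70.7 CPM. Lig1 and Fen1, which act in succession on Okazaki fragments, were thus on opposite sides of the control at both times.

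In the nucleotide supply list, Dut, the dUTPase, was at 354, 235 and 239 CPM, and Rrm2b, the alternative small subunit of the reductase, at 19.99, 26.3 and 35.5 CPM. Rrm2b was the highest of its list at both times, with 0.38 at 3 h and 0.80 at 6 h, where Rrm2 was at -0.42 and -0.90. Among checkpoint genes, Etaa1, an activator of ATR, had ratios of -1.29 and -1.18, and the inhibitory kinase gene Wee1 had 0.11 and 0.43. Among chromatin assembly genes, Asf1b, a histone chaperone gene, had -0.99 and -0.88 and Uhrf1, which brings DNA methyltransferase to new DNA, 0.19 and 0.52. In the E2F, RB and cyclin list, Cdkn1b, the CDK inhibitor p27, had -1.62 and -1.80, and Ccnd1, cyclin D1, had 0.72 at 3 h. Rb1 and Rbl2, of the RB family, had 1.19 and 1.26 at 6 h.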

How the data were processed

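Members and gene lists were chosen with earlier results of these data known. The deposited files hold raw UMI counts per gene and barcode, not normalized, made by the authors with Cell Ranger 7.1.0 on mm10, per the submitters' processing notes; the annotation and the treatment of intronic and multi-mapped reads are not given in the sources used here. The deposited matrices are not limited to cells. Cells were called as barcodes above the 99th percentile of the top 3000 barcodes divided by 10 (at least 11034, 2961 and 2107 UMIs in control, 3 h and 6 h), requiring 500 detected genes and no more than 20% of UMIs from mitochondrial genes. Called cells held 104892739, 29892000 and 24681924 UMIs. No doublet caller was run, and cells above 2 times the median UMIs were left out as an alternative. UMIs were summed per library, and log2 ratios used CPM plus a pseudocount of 1. Genes needed a mean of 10 CPM. Ratios carry exact conditional binomial intervals and levels exact Poisson ones (scipy 1.17.1, pandas 2.3.3, Python 3.11.15). TMM factors came from edgeR 4.0.16. Gene spans and mRNA GC were taken from GENCODE M21.

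All 41 members are accounted for. Full values were set to be given for the MCM genes, Pcna, Tyms, Rrm1 and Rrm2, and for the 5 lowest and 5 highest members at each time. Of each list of other genes, the 2 lowest and 2 highest could be named. The counting step was tested on simulated data with 200 of 7884 genes changed 3-fold. Of the changed genes 100% passed the 2-fold mark, and 0 unchanged genes did. The true value lay in 95.1%, 95.3% and 95.6% of intervals for 3 h and 6 h against control and 6 h against 3 h. The simulated counts held only the counting error that the intervals assume, with no spread between libraries and no broad shift of all genes. The test therefore checks the calculation and not the real differences.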

Additional observations from a re-analysis of the deposited data

Results flagged for a closer look

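Mcm6 lay on opposite sides of the control at the 2 times, with log2 ratios of -0.16 at 3 h and 0.11 at 6 h, and the counting intervals exclude 0 at both. The difference between the times was not tested beyond counting error, since each time is 1 library. With median-of-ratios factors its 3 h ratio was 0.08.

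Barcodes outside the called cells, which hold free RNA and broken cells, carried transcripts of the MCM genes at 1638 CPM at 6 h, above 1197 CPM outside the control cells and 1185 CPM outside the cells at 3 h. Inside the called cells the MCM genes were at 1404, 1376 and 1741 CPM in control, 3 h and 6 h, so the outside level was 0.853, 0.861 and 0.941 of the level inside.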

How the results depend on the processing

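The median ratio of the members stayed below 0 at 3 h and 6 h in every alternative that was run. It moved at 3 h to -0.18 with median-of-ratios factors, -0.23 with TMM factors and -0.36 with each cell weighing the same. Between 3 h and 6 h it moved to -0.14 with either set of factors. On UMIs per cell the medians were -2.35 at 3 h, -2.79 at 6 h and -0.47 between them, and all 38 members that kept the minimum mean on that scale were at least 2-fold lower at 3 h and at 6 h, as were 99.4% and 99.8% of all 5833 such genes, with 1 between 3 h and 6 h. The number of members at least 2-fold lower at 3 h was 5 in cells of 12000 to 25000 UMIs, 0 with median-of-ratios factors and 1 with a minimum mean of 50 CPM. At 6 h it was 2 in that window, 2 without cells above 2 times the median UMIs and 2 with a pseudocount of 0.1. The share of all genes past 2-fold was not computed for these settings, nor for 6 h against 3 h on UMIs per cell. These counts can therefore not be read as particular to the members. The median of all genes at 3 h also moved, to -0.51 in that window and to -0.04 with median-of-ratios factors. The thinned medians were 12 in each library at 2000 UMIs per cell, and 23 at 3 h without cells above 2 times the median UMIs.

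The following were chosen after seeing the data. For the members across the ranges of G2/M level, 20 further draws gave -0.19 to -0.15 in control, -0.030 to 0.018 at 3 h and down to -0.024 at 6 h. The control ratio was -0.13 at 2000 UMIs, -0.15 with members counted in the thinned UMIs and -0.071 in cells of 12000 to 25000 UMIs. The 3 h ratio was 0.046 in thinned UMIs, -0.050 in that window and -0.021 without Nasp. The 6 h ratio was 0.018 at 2000 UMIs and 0.026 without cells above 2 times the median UMIs. The cause was not tested.

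No paired analysis was possible because each condition has 1 library. Depth limits the lowest members most: Ccne2 rests on 271 UMIs at 3 h and Dscc1 on 237 at 6 h.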

Other observations

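In the G2/M list, used above for ranking cells, all 40 genes had a mean of at least 10 CPM, with medians of -0.52 at 3 h and -0.37 at 6 h. Counting intervals were below 0 in 34 and above 0 in 4 at 3 h, and in 35 and 4 at 6 h, against 65.5% and 21.5% of all genes at 3 h and 51.9% and 31.7% at 6 h. Cdk1, the mitotic kinase, was at 143, 59.5 and 47.8 CPM in control, 3 h and 6 h, and Aurkb, the kinase of the chromosomal passenger complex, at 44.7, 18.0 and 17.7 CPM. Mki67, the proliferation marker, was lowest at 3 h, with 145.7, 49.8 and 94.1 CPM. The checkpoint gene Bub3 was at 117, 156 and 134 CPM.

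Across cells thinned to 4000 UMIs, the members' and the G2/M genes' UMIs had a Pearson r of -0.17 over 2031 control cells, 0.07 over 2243 cells at 3 h and -0.02 over 2642 cells at 6 h. The cells of a library share its depth and handling, the values are weak, and none is read as a finding.

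In a comparison chosen after seeing the data, the members' median ratio at 3 h within the 3 ranges of cells by G2/M level, each against the same range of the control, was -0.46, -0.47 and -0.41 in the low, middle and high range. At 6 h it was -0.42, -0.32 and -0.20. Mcm7 was the highest member at 6 h in each range, at 0.77, 0.82 and 0.82.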
